A study of Mus musculus with 51 samples.

Results

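Astroglial neural progenitor cells (aNPC) are the day 0 stage of an in vitro series in which mouse embryonic stem cells give rise to progenitors and then astrocytes, and in them the histone marks H3K27ac and H3K4me1 were mapped by ChIP-seq. All H3K27ac and H3K4me1 peaks of aNPC on chromosomes 1 to 19 are described here, 77553 for H3K27ac and 150527 for H3K4me1, together 228080 of the 784577 regions that the 6 histone mark lists of the series hold on these chromosomes. They were sorted by overlap of at least 1 bp into regions with both marks, H3K27ac without H3K4me1 and H3K4me1 without H3K27ac. The cells derived from embryonic stem cells on a C57/BL-6 background and grew in DMEM-F12 with N2 and EGF and FGF-2 at 10 ng/ml each, without siRNA. H3K27ac was precipitated with Abcam ab4729 and H3K4me1 with a rabbit polyclonal antibody, Abcam ab8895. Each mark was measured in 2 biological replicates that the authors merged before calling peaks, so each mark has 1 list, no error between cultures can be given, and no difference between classes was tested. The intervals below are 95% Wilson intervals that cover counting error over peaks only. The lists carry no read counts, so the depth behind each mark is unknown, and no input library was used as control. Fold enrichment, the reads at a peak's summit relative to the local background of the same library, was therefore ranked only inside a list.

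H3K4me1 is the monomethylation of lysine 4 of histone H3 and lies mainly at enhancers and on the shoulders of promoters, whether or not these are in use. H3K27ac, the acetylation of lysine 27, is placed by p300 and CBP and marks enhancers and promoters in use. A distal region with both marks is commonly read as an active enhancer and one with H3K4me1 alone as a primed enhancer, while active promoters carry H3K4me3 in place of H3K4me1 next to the start site.

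Regions of each class are shown as the 200 bases around the summit, on the plus strand of mm9 (NCBIM37). They were chosen after their values were seen, as the highest peak of the stated class by fold at a gene of the lists described below. The capitals mark CG dinucleotides. The windows labelled promoter, of all 3 states, hold 14 to 26, and the distal windows near Sox2 and Nes 2 and 9. In these labels promoter means that the peak touches a promoter region, as for the gene states below. The centres of these promoter peaks lay 323 to 761 bp downstream of the nearest coding start site. By the rule for peak centres used below they count as distal.
Sox2 distal, both marks, chr3:34310782-34310981: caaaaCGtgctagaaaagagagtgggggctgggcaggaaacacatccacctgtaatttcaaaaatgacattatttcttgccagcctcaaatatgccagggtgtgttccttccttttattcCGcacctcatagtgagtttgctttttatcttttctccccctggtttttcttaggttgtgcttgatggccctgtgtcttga
Nes distal, both marks, chr3:87764593-87764792: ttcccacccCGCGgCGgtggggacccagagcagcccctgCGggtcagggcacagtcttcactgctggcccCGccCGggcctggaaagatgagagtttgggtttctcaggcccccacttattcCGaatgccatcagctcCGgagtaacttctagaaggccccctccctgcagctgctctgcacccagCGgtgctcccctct
Lhx2 promoter, both marks, chr2:38195088-38195287: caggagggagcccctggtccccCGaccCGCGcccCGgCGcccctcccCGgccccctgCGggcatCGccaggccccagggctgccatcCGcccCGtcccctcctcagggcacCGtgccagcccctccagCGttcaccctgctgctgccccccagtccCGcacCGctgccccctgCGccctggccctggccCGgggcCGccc
Rplp0 promoter, H3K27ac alone, chr5:116009563-116009762: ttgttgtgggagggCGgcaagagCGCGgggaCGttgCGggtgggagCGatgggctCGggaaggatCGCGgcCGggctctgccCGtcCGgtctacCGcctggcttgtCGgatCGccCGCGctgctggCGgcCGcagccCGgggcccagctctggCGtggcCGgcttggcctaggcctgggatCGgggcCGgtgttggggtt
Spry2 promoter, H3K27ac alone, chr14:106295622-106295821: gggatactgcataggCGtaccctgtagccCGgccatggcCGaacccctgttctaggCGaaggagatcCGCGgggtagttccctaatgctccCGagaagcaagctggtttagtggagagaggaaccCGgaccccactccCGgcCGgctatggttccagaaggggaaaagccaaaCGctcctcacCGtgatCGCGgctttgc
Neurog2 promoter, H3K4me1 alone, chr3:127336107-127336306: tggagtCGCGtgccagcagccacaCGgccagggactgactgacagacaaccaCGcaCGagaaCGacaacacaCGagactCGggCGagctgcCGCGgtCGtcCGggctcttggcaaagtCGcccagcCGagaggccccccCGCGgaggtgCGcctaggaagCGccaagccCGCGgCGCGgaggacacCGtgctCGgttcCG
Rbfox3 promoter, H3K4me1 alone, chr11:118770482-118770681: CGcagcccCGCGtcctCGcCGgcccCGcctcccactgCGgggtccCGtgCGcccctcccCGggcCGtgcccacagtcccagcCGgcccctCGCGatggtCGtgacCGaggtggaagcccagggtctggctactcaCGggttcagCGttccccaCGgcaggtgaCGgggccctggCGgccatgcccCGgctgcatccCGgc

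The region near Sox2, a transcription factor that maintains neural stem cells, lay 238 kb upstream of its start site, was 820 bp wide and held 2 CG dinucleotides in the window. The region upstream of Nes, which encodes the progenitor intermediate filament nestin, lay 10.7 kb before the start site, had a fold of 12.8 and was in the top 3.31% of the H3K27ac list. The summit window at Rplp0, a ribosomal protein gene, held 24 CG dinucleotides, and the peak had a fold of 20.6, in the top 0.276% of the H3K27ac list. At Neurog2, a proneural transcription factor, a single H3K4me1 peak of 2406 bp spanned the start site, with 26 CG dinucleotides in its summit window and no H3K27ac peak at the promoter.

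Most acetylated regions also carried H3K4me1, but most H3K4me1 regions did not carry H3K27ac. H3K4me1 overlapped 63774 of the 77553 H3K27ac peaks (82.2%, 95% interval 82.0 to 82.5) and left 13779 (17.8%) without it. The number without it depended on the overlap rule. It was 24870 when the H3K27ac summit had to lie inside an H3K4me1 peak and 6126 when a gap of up to 500 bp was allowed. H3K27ac overlapped 58710 of the 150527 H3K4me1 peaks (95% interval 38.8 to 39.2%), and 91817 (61.0%) had H3K4me1 alone. In length, the H3K27ac list covered 44.4 Mb and the H3K4me1 list 89.7 Mb, of which 29.3 Mb were shared, 66.2% of the former and 32.7% of the latter. Across the 19 chromosomes the share of H3K27ac peaks with H3K4me1 ran from 79.2% to 85.1%, and the share of H3K4me1 peaks without H3K27ac from 58.9% to 63.6%.

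The H3K27ac regions without H3K4me1 mostly lay beside an H3K4me1 region rather than far from any. The median gap to the nearest H3K4me1 peak was 408 bp (quartiles 172 and 2079 bp), and 74.6% had an H3K4me1 peak within 2 kb. At promoters this share was 96.1% (1401 of 1458), and 56.2% had H3K4me1 within 2 kb on both sides. Distal H3K27ac peaks without H3K4me1 had an H3K4me1 neighbour within 2 kb in 72.1% of cases and on both sides in 2467 of 12321 cases. The H3K4me1 regions without H3K27ac stood further away, with a median gap of 8084 bp to the nearest H3K27ac peak, and 25.7% of them had H3K27ac within 2 kb. Where the marks overlapped, the H3K27ac summit lay a median of 203 bp from the nearest H3K4me1 summit, 312 bp at promoters and 192 bp elsewhere.

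The H3K4me1 regions without H3K27ac were the class farthest from promoters by share. A promoter peak had its centre between 1 kb upstream and 100 bp downstream of the start site of a coding transcript, and all others were called distal. By this rule 4.44% (4.31 to 4.58) of the H3K4me1 peaks without H3K27ac were at promoters, against 11.5% (11.2 to 11.7) of the H3K27ac peaks with H3K4me1 and 10.6% (10.1 to 11.1) of those without. The promoter share was lower for H3K4me1 without H3K27ac than for either H3K27ac class on 19 of 19 chromosomes, whereas the 2 H3K27ac classes kept their order on 12 of 19. The order of the 2 H3K27ac classes turned under other settings, with promoter shares of 22.3% with H3K4me1 and 23.6% without when promoters reached 1 kb to both sides of any transcript, 13.3% and 15.5% for peaks with a −log10 q of at least 5, and 8.14% and 18.1% under the summit rule. Median distances to the nearest coding start site were 24.8 kb for H3K27ac with H3K4me1, 30.2 kb for H3K27ac without H3K4me1 and 29.4 kb for H3K4me1 without H3K27ac. Among peaks with a −log10 q of at least 5 these medians were 21994, 16996 and 28321.5 bp, so H3K27ac without H3K4me1 was then the nearest class. The class of H3K27ac without H3K4me1 was spread to both ends, with 21.3% of its peaks within 1 kb of a start site and 3720 of 13779 (26.3 to 27.7%) more than 100 kb away, against 19.8% and 20.5% for H3K27ac with H3K4me1. Of the H3K4me1 peaks without H3K27ac, 7.28% lay within 1 kb and 48.4% between 10 and 100 kb. Introns held 45.5%, 42.3% and 48.8% of the peaks with both marks (counted in the H3K27ac list), with H3K27ac alone and with H3K4me1 alone.

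Regions with both marks were the widest of each list. H3K27ac peaks had a median width of 486 bp with H3K4me1 (quartiles 287 and 814 bp) and 267 bp without (200 and 433 bp). H3K4me1 peaks measured 760 bp with H3K27ac and 352 bp without. A wider peak has more room to meet a peak of the other list. When only the 1-bp summit of an H3K27ac peak had to lie inside H3K4me1, the median widths drew together to 454 bp with H3K4me1 and 383 bp without. By that rule the share with H3K4me1 was 55.0% in the narrowest of 10 equal groups of the list, 76.6% in group 6 and 65.1% in the widest. In the H3K4me1 list the share with its summit inside H3K27ac went from 9.72% in the narrowest to 60.7% in the widest group.

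**Figure D1:**
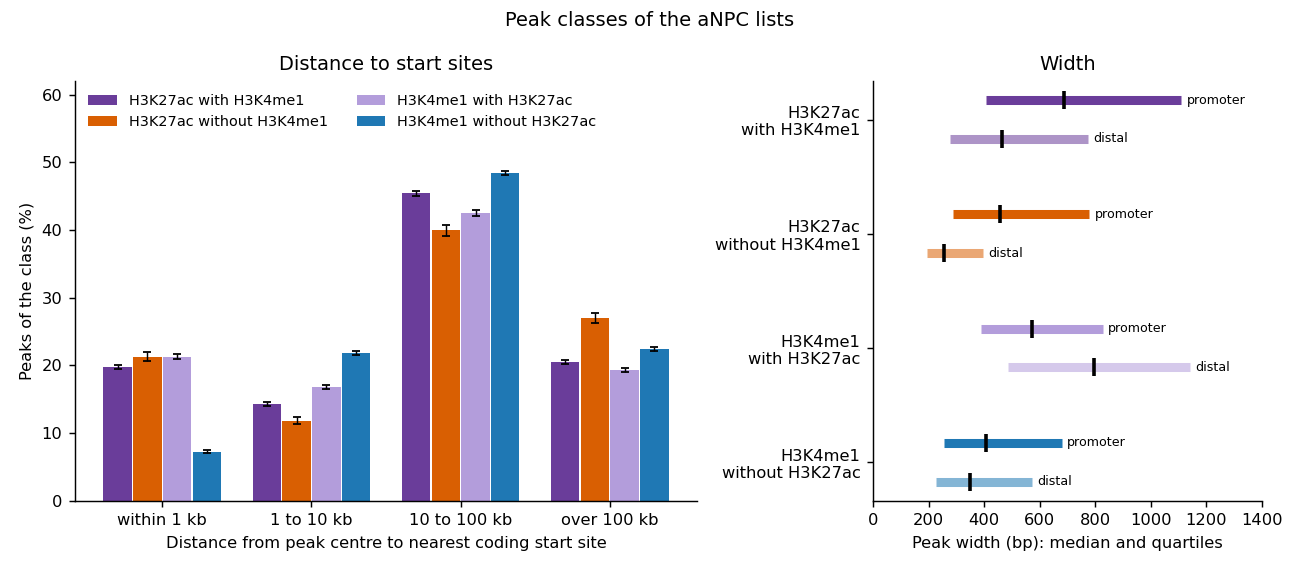
Left, share of the peaks of each class (%) by distance from the peak centre to the nearest coding start site, with 95% Wilson intervals. Right, peak width in bp, where the coloured bar runs between the quartiles and the black tick is the median, for promoter and distal peaks. H3K4me1 without H3K27ac has 7.28% of its peaks within 1 kb of a start site, and the other 3 groups have 19.8% to 21.3%.

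At promoters with H3K27ac, H3K4me1 was called more often on both shoulders of the start site than over it. Peaks of each list were followed in 50-bp steps around 22040 coding start sites whose promoter region held H3K27ac. An H3K4me1 peak covered 19.8% of the start sites themselves, 48.1% of the positions 450 bp upstream and 57.8% of those 850 bp downstream. The H3K27ac list, which chose these start sites, reached 86.9% at 150 bp downstream. Around the 21929 start sites without H3K27ac at the promoter, H3K4me1 showed a single maximum of 17.2% at 150 bp downstream and 16.5% at the start site, with no dip. The summit of an H3K27ac peak lay inside an H3K4me1 peak for 48.8% of the promoter peaks (47.8 to 49.9) and 70.4% of the distal peaks (70.0 to 70.7), although the shares that overlapped H3K4me1 at all were 83.4% and 82.1%.

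**Figure D2:**
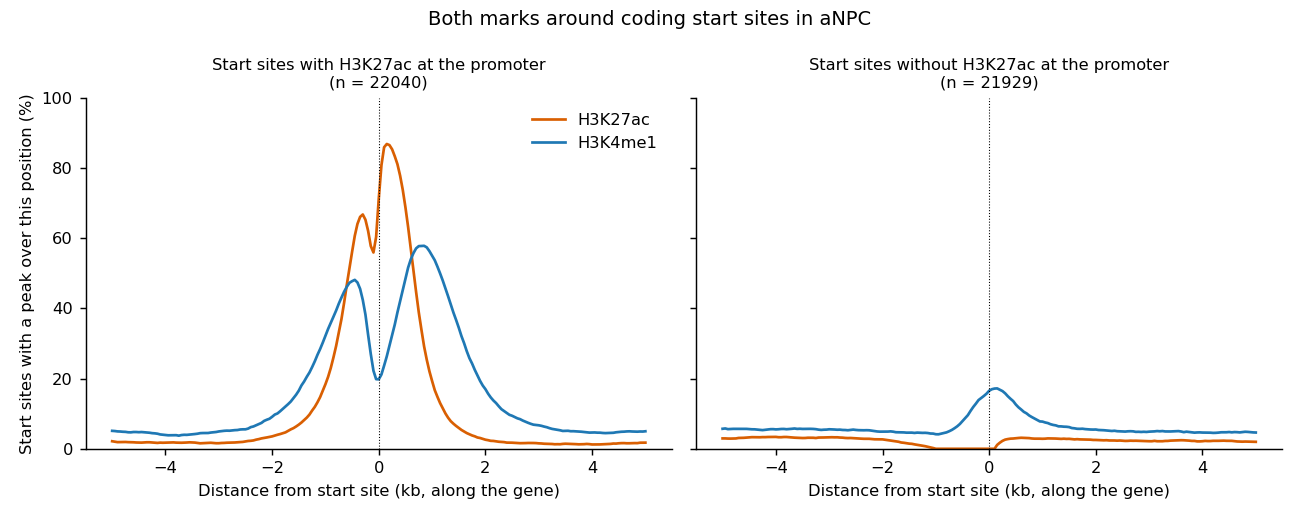
Share of coding start sites (%) with an H3K27ac peak (orange) or an H3K4me1 peak (blue) over each position, against the distance from the start site in kb along the gene, for start sites with H3K27ac at the promoter (left) and without (right). The start sites were chosen by H3K27ac, so only the H3K4me1 curve is independent of that choice. H3K4me1 falls to 19.8% at the start site between maxima of 48.1% and 57.8% on the left and has no dip on the right.

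The start sites themselves differed in CpG content with the marks over them. Of 18300 start sites with both marks at the promoter region, 77.8% (77.2 to 78.4) were CpG-rich, meaning at least 50% G and C and an observed to expected CpG ratio of at least 0.6 in the 200 bp around the site. With H3K27ac alone the share was 86.3% (85.2 to 87.4) of 3740, with H3K4me1 alone 46.7% (45.4 to 48.1) of 5414, and with neither mark 9.15% (8.72 to 9.60) of 16515. Distal summits were poorer in CpG, with 8.44% CpG-rich windows for H3K27ac peaks with H3K4me1, 11.7% for those without and 2.29% for H3K4me1 peaks without H3K27ac.

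Regions of high fold in either list carried the other mark more often than those of the lowest fold. Each list was ranked by fold and cut into 10 equal groups, numbered from the lowest. Among distal H3K4me1 peaks, 26.4% overlapped H3K27ac in group 1, 18.9% in group 3 and 65.7% in group 10, so the share first fell and then rose. Promoter H3K4me1 peaks overlapped H3K27ac in 51.0% of group 1, 76.1% of group 8 and 61.1% of group 10. In the H3K27ac list the share with H3K4me1 among distal peaks went from 70.9% in group 1 to 92.7% in group 8 and was 85.6% in group 10. Peaks of higher fold were also wider, with a median of 256 bp in group 1 and 966 bp in group 10 of the H3K27ac list, and the part of width in this order was not tested.

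**Figure D3:**
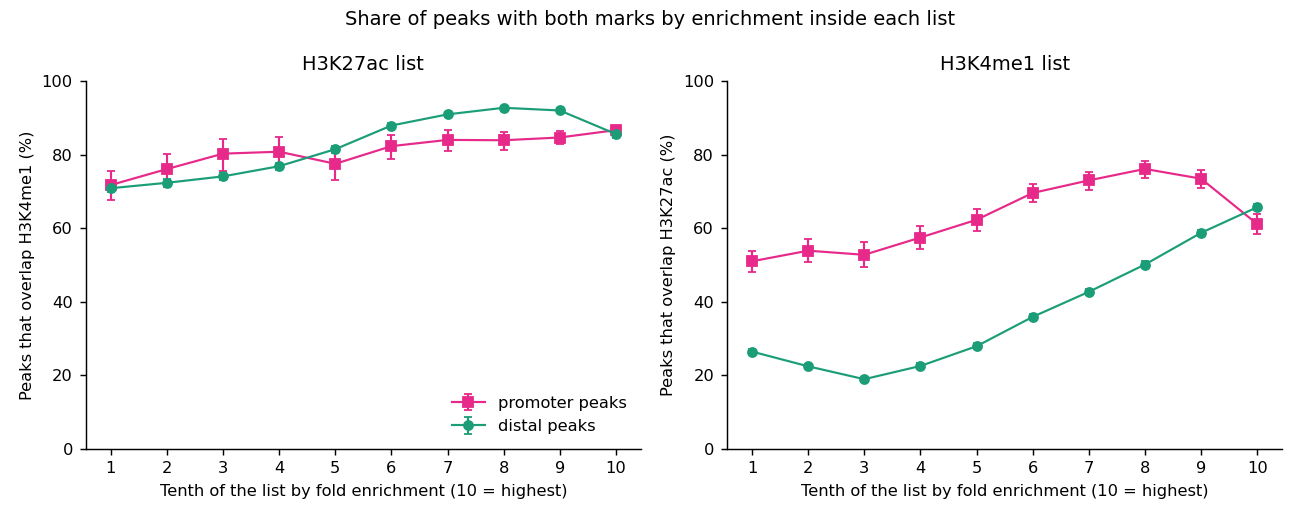
Share of peaks (%) that overlap a peak of the other mark, in 10 equal groups of each list ranked by fold enrichment, for promoter peaks (pink squares) and distal peaks (green circles), with 95% Wilson intervals. In the H3K4me1 list the distal share goes from 26.4% in group 1 to 18.9% in group 3 and 65.7% in group 10, and in the H3K27ac list the distal share is lowest, at 70.9%, in group 1.

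Some short motifs differed in frequency between the classes in the 200 bp around distal summits. The letters searched on both strands for RFX factors, which bind the X-box, were GTTGC followed directly by CATGG. They occurred in 0.564% of the distal H3K4me1 windows without H3K27ac and in 0.177% of those with H3K27ac, against 0.332% of all coding start sites. The E-box CAGCTG, bound by proneural bHLH factors, was found in 17.8% and 16.4% of these windows, and in 12.9% and 10.1% of the distal H3K27ac windows with and without H3K4me1, against 12.6% of start sites. The SOX letters CCATTGT occurred in 4.20% of the distal H3K4me1 windows without H3K27ac, 3.43% of those with it and 1.81% of start sites. The AP-1 letters TGANTCA were found in 7.73% and 6.88% of the distal H3K4me1 windows without and with H3K27ac, and in 3.89% of start sites. The full palindrome of the NF1 factors, TTGGC and GCCAA with 5 bases between them, was rare, with at most 0.0946% in any class of distal windows. That share was found in the distal H3K4me1 windows without H3K27ac (83 of 87739), against 0.00910% of start sites (4 of 43968). A match shows only that the letters occur in the window, and the classes differ in base composition. The distal H3K4me1 peak without H3K27ac of highest fold with an RFX match lay 43.8 kb upstream of Nrxn3, which encodes a presynaptic adhesion protein, with a fold of 12.3. The capitals in its window mark the RFX letters, read on the reverse strand, and 2 E-boxes.
Distal H3K4me1 alone with an RFX match, chr12:90387589-90387788: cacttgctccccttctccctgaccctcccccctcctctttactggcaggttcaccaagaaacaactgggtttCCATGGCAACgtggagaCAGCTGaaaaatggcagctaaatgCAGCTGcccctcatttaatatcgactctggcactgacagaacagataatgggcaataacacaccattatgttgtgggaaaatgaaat

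A gene was given the state of its promoter region, from 1 kb upstream to 100 bp downstream of any of its coding start sites, by which lists had a peak touching that region. Among 21320 coding genes, 9465 (44.4%) had both marks, 1444 (6.77%) H3K27ac alone, 2552 (12%) H3K4me1 alone and 7859 (36.9%) neither, so that 10909 (51.2%) had H3K27ac with or without H3K4me1. These shares are the background for every list of genes below. A state of H3K27ac alone concerns the promoter region only, and in 941 of the 1444 genes (65.2%) an H3K27ac peak there met H3K4me1 outside the region. The class also depends on the extent of the promoter, and when it reached 1 kb to both sides of the start site 306 genes (1.44%) had H3K27ac alone, 10996 (51.6%) both marks, 2629 (12.3%) H3K4me1 alone and 7389 (34.7%) neither, which are the background for counts with this wider promoter.

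The cell type was checked against lists of marker genes. Genes of neural progenitors largely carried both marks, and none of the listed genes of other tissues carried H3K27ac at the promoter. Of 21 progenitor genes in the annotation, 16 had both marks at the promoter against the background of 44.4%, and 18 with the wider promoter against 51.6%. Among them were Sox2, Pax6, Nes, Vim, Fabp7 and Hes1. Pax6, a homeobox factor of radial glia, had an H3K27ac fold of 7.25 (top 13.4% of its list) in a peak of 1854 bp. Sox2 had an H3K27ac fold of 3.76 in a peak of 1382 bp and an H3K4me1 fold of 6.87. Lhx2, a LIM homeobox factor of the forebrain, had an H3K4me1 fold of 11.0, in the top 0.387% of that list. The exceptions included Hes5, a Notch target, and Id3, an inhibitor of bHLH factors, with H3K4me1 alone, and Olig2 and Prom1 with neither, although with the wider promoter 0 of the 21 genes had neither and Olig2 had H3K27ac alone. Olig2, a bHLH factor of glial progenitors, nevertheless had 16 regions with both marks in its window, which here is the gene body with 50 kb on each side, whereas Prom1, which encodes the surface antigen CD133, had 3. The defining genes of other tissues had H3K27ac at the promoter in 0 of 14 cases, against 51.2% of all coding genes. Those of pluripotency had it in 2 of 10, Esrrb and Klf4. Pou5f1 and Nanog, the core pluripotency factors, had neither mark.

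Promoter H3K27ac peaks of the listed genes with both marks differed in median fold and width between the lists. Every list with such genes lay below the median fold over all genes with both marks. In the 16 progenitor genes with both marks the highest H3K27ac peak at the promoter had a median fold of 4.11 and a median width of 1344.5 bp, against 9.69 and 927 bp over all 9465 genes with both marks. For genes of EGF and FGF signalling the medians were 6.36 and 1385.5 bp in the 8 with both marks. Housekeeping genes had 7.75 and 942.5 bp in 10 genes, astrocyte genes 6.71 and 846 bp in 11 genes and neuronal genes 4.09 and 594 bp in 6 genes. Since the local background of a peak is drawn from the same library around it, fold and width are not independent measures of these peaks.

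The EGF and FGF pathway, whose ligands the culture medium supplied, had H3K27ac at the promoter of 12 of 12 genes, against 51.2% of all coding genes. The receptors Egfr, Fgfr1, Fgfr2 and Fgfr3 had both marks, with H3K27ac folds of 7.86, 7.62, 6.52 and 5.97. The ETS factors Etv4 and Etv5, the phosphatase Dusp6, a feedback inhibitor that dephosphorylates ERK, and the exchange factor Sos1 had both marks as well. The remaining 4, Spry1, Spry2, Spred1 and Spred2, had H3K27ac alone against a background of 6.77%, and all 4 encode feedback inhibitors of receptor tyrosine kinase signalling, as does Dusp6 with both marks. The peaks at Spry1 and Spry2 met no H3K4me1, while at Spred1 1 of 2 and at Spred2 the only H3K27ac peak met H3K4me1 outside the promoter region. With the promoter widened to 1 kb on both sides the same 4 genes had H3K27ac alone, against a background of 1.44%. The H3K27ac peak of highest fold at each of these 4 promoters was 644 to 2169 bp wide (median 1786.5 bp), with folds of 3.26 to 5.10 (median 4.73). Over all 1444 genes with H3K27ac alone the medians were 889.5 bp and a fold of 10.6, so these peaks were wider and of lower fold.

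Astrocyte genes were mixed at this stage. Of 18 genes, 11 had both marks against a background of 44.4%, including Gfap, S100b, Aldoc and Slc1a2. Gfap, the astrocytic intermediate filament, had an H3K27ac fold of 4.80 (top 33.4%) and an H3K4me1 fold of 6.07 (top 20.5%). H3K4me1 alone was at Gja1, which encodes connexin 43, and at Apoe, the lipid carrier. Neither mark was at the promoters of Aqp4 (the water channel of astrocyte endfeet), Aldh1l1, Gjb6 (connexin 30), Kcnj10 (an inward rectifier potassium channel) and Ntsr2. These 5 genes had 3, 24, 4, 9 and 11 regions with both marks in their windows, in this order. With the wider promoter 13 of the 18 genes had both marks, 3 H3K4me1 alone and 2 neither, against 51.6%, 12.3% and 34.7%.

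Neuronal genes held H3K4me1 without H3K27ac more often than any other state, as did the genes of the Hoxa cluster described below. Of 20 genes, 10 had H3K4me1 alone against a background of 12%, namely Rbfox3, Snap25, Neurod4, Neurod6, Neurog1, Neurog2, Gad2, Slc17a7, Elavl3 and Grin2b. Their highest promoter peaks had folds of 3.19 to 7.60 (median 6.17) and widths of 227 to 2406 bp (median 838 bp). Over all 2552 genes with H3K4me1 alone the medians were 5.78 and 759 bp, close to those of the neuronal genes. Grin2b, an NMDA receptor subunit, and Rbfox3, the splicing factor known as NeuN, were in the top 8.28% and 7.78% of the H3K4me1 list. Both marks were at Tubb3, Map2, Syt1, Neurod1, Eomes and Gad1, with H3K27ac folds of 3.55 to 7.35. Neurod2, Tbr1, Slc17a6 and Stmn2 had neither, and with the wider promoter 12 of the 20 genes had H3K4me1 alone, against 12.3%. Slc17a6, the vesicular glutamate transporter VGLUT2, had 0 regions of every class in its window.

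Oligodendrocyte genes were divided, with both marks at Pdgfra, the receptor of oligodendrocyte precursors, and H3K27ac alone at Cnp. H3K4me1 alone was at Olig1, Mbp and Myrf (Gm98 in the annotation), 3 of 10 against a background of 12%. Sox10, Mag, Mog, Cspg4 and Nkx2-2 had neither. With the wider promoter no oligodendrocyte gene had H3K27ac alone. In the Hoxa cluster, whose genes pattern the body axis behind the forebrain, Hoxa4 and Hoxa7 had both marks. Hoxa3, Hoxa5, Hoxa9, Hoxa10 and Hoxa13, 5 of 11, had H3K4me1 alone against a background of 12%. With the wider promoter 5 of the 11 genes had both marks and 3 H3K4me1 alone, against 51.6% and 12.3%.

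Among genes of other tissues, H3K4me1 alone was at Ins2, Myh6, Gata4 and Nkx2-5, 4 of 14 against a background of 12%. The other 10 had neither, against 36.9%, and with the wider promoter 6 of the 14 had H3K4me1 alone, against 12.3%. Ins2, which encodes insulin, and Gata4, a cardiac and endodermal factor, had H3K4me1 folds of 9.91 and 9.45, in the top 1.10% and 1.67% of the list. Tfcp2l1, a pluripotency factor (Tcfcp2l1 in the annotation), had H3K4me1 alone with a fold of 9.55, in the top 1.56%. Housekeeping genes had H3K27ac in 12 of 12 cases against the same 51.2%, with both marks at 10 and H3K27ac alone at Sdha and Rplp0, while with the wider promoter all 12 had both. Transcriptional regulators that the study follows, with close relatives (Nfia, Nfib, Nfix, Atf3, Runx2, Stat3 and Prdm9), had both marks in 7 of 7 cases, against 44.4%. Since the study picked genes of this list on its own data, they are no independent evidence. Stat3, which transmits LIF signals, had an H3K27ac fold of 13.7 (top 2.56%), and Atf3, a stress-responsive bZIP factor, 13.3 (top 2.89%). The highest of the list was Prdm9, a histone methyltransferase of meiosis, with 23.0 (top 0.122%).

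**Figure D4:**
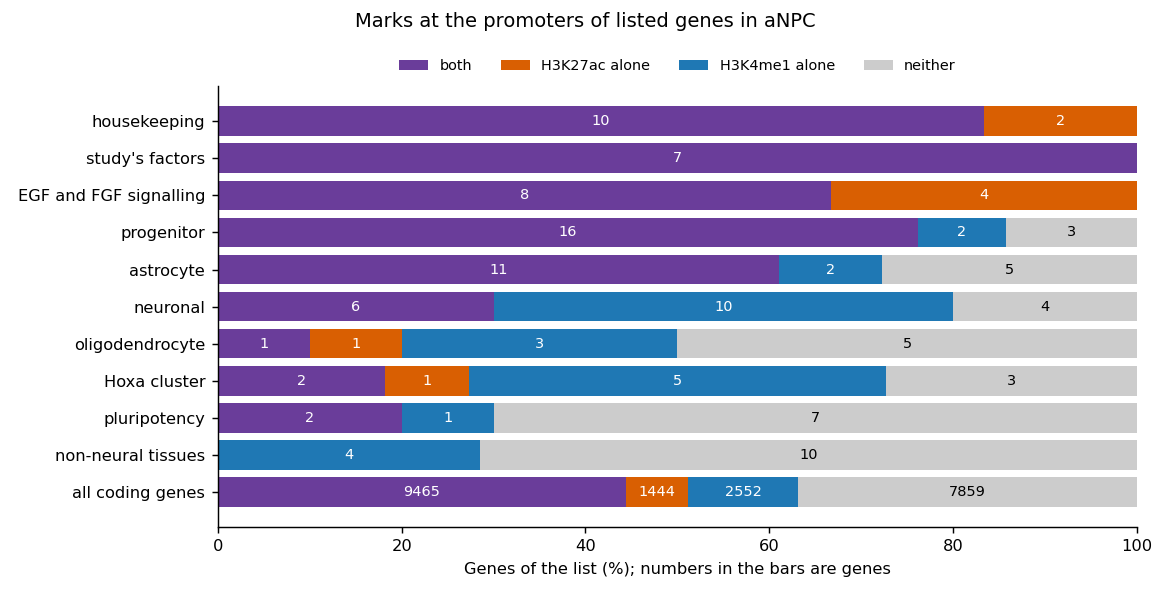
Share of the genes of each list (%) by the marks at the promoter, where purple is both, orange H3K27ac alone, blue H3K4me1 alone and grey neither, and the numbers in the bars count genes. Housekeeping and EGF and FGF signalling genes all carry H3K27ac, 10 of 20 neuronal genes carry H3K4me1 alone, and 10 of 14 genes of other tissues carry neither. The bottom bar gives all 21320 coding genes.

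Single genes show how the called peaks are placed. Around the start site of Nes, H3K27ac peaks lay from -498 to -234, from 48 to 1820 and from 1920 to 3310 bp, and H3K4me1 peaks from -770 to -163 and from 1804 to 3200 bp. All 7 H3K27ac peaks within 15 kb of it overlapped H3K4me1. At Egfr, H3K4me1 lay from -916 to -55 bp relative to the start site, with an H3K27ac peak from -409 to -76 bp inside it, and the H3K27ac peak from 18 to 1393 bp met no H3K4me1. The H3K27ac peak at Rplp0 ended at 857 bp and the next H3K4me1 peak began at 877 bp, so that it counts as H3K27ac without H3K4me1 by a small gap. Neurog2 had 3 H3K4me1 and 0 H3K27ac peaks within 15 kb, the main one from -785 to 1620 bp relative to the start site. Pou5f1 had no peak over its promoter, and 2 peaks of each mark, all overlapping, lay between 9166 and 11999 bp downstream.

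**Figure D5:**
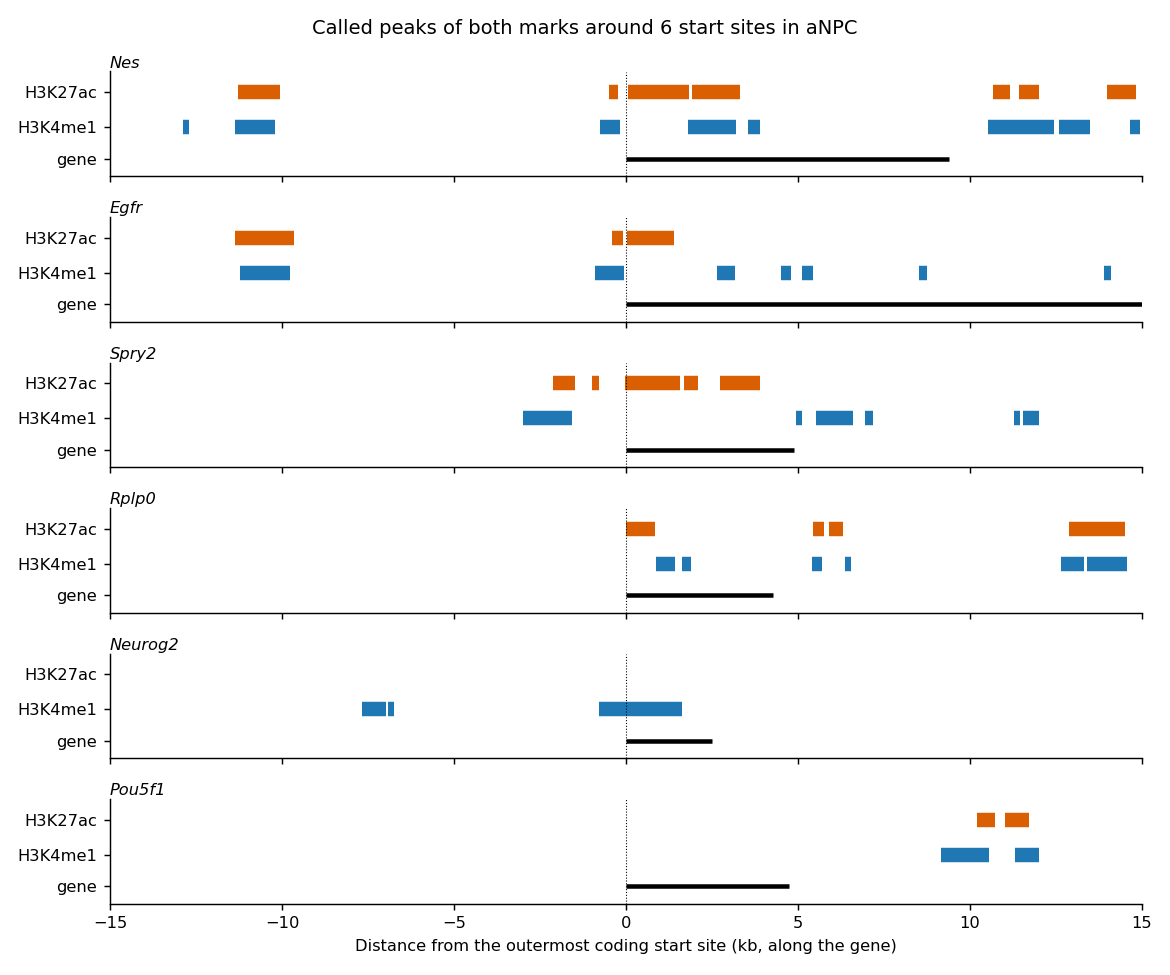
Called H3K27ac peaks (orange) and H3K4me1 peaks (blue) within 15 kb of the outermost coding start site of Nes, Egfr, Spry2, Rplp0, Neurog2 and Pou5f1, with the distance in kb along the gene and the gene body in black. The genes were chosen after their values were seen. Nes and Egfr have H3K27ac peaks on both sides of the start site, and at Neurog2 H3K4me1 spans the start site without H3K27ac.

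Counting the peak centres in the gene body and 50 kb on each side, the 5 genes with most regions with both marks were Gm20388 (253), Fgfr2 (120), Arhgap26 (75), Npas3 (68) and Msi2 (63), against a median of 4 over all coding genes. The first 2 have annotated transcripts that run over several other genes, the 4435 kb model of Gm20388 and a 3009 kb model of Fgfr2. Without transcripts that contain 3 or more other coding genes, an alternative chosen after seeing the data, Fgfr2 measured 104 kb and held 8, and the leading 5 were Arhgap26, Npas3, Msi2, Cdkal1 and Kirrel3. Npas3, a bHLH-PAS factor of the developing brain at chr12:54349664-55173162, held 68 regions with both marks, 20 with H3K27ac alone and 93 with H3K4me1 alone, and was among the leading 5 of every class. Msi2 encodes an RNA-binding protein of stem cells and had 12.0 regions with both marks per 100 kb of its window, against a median of 3.35.

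Zeb1, a zinc finger factor of epithelial to mesenchymal transition, held many H3K27ac peaks without H3K4me1. Its window at chr18:5591858-5775465 with 50 kb on each side held 30 such peaks beside 19 with both marks, 10.6 per 100 kb, the highest of all coding genes by that measure. Other leading counts of this class included Gm20388 (40), Fgfr2 (25, and 1 without the spanning transcripts) and Npas3 (20). Per 100 kb, Zeb1 was followed by Cirbp, Atp5d, Midn and Dos with 9.97 to 10.3, neighbouring genes on chromosome 10 whose windows share the same peaks.

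For H3K4me1 without H3K27ac the leading counts were Gm20388 (341), Fgfr2 (203, and 21 without the spanning transcripts), Arfip1 (95), Npas3 (93) and Auts2 (84), a gene linked to neurodevelopment, against a median of 6. The model of Arfip1 measured 1391 kb. By nearest coding start site Arfip1 received 13 peaks of this class, Npas3 60 and Auts2 103. Per 100 kb the highest were Gm10655, Btn2a2, Gm8618, Hoxa6 and Cryba4 with 19.8 to 20.7. Per 100 kb of regions with both marks Slc48a1, Hdac11, Gm17532, Tgfbi and 9430097D07Rik led with 20.7 to 22.2, and Slc48a1 and Gm17532 are neighbours on chromosome 15. When every peak was assigned by its closest coding start, Zfp608 (90), Kirrel3 (68), Myc (66), Rora (65) and Zbtb20 (65) led for both marks. Myc, the growth regulator, had only 1 region with both marks within 50 kb, so nearly all of its 66 lay farther away. Sox2 received 45 regions with both marks, 10 with H3K27ac alone and 55 with H3K4me1 alone in this way.

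Of the 100 H3K27ac peaks of highest fold, 54 were at promoters and 80 overlapped H3K4me1. Of the 101 leading H3K4me1 peaks, ties included, 16 were at promoters and 64 overlapped H3K27ac. In 5 of these leading regions the summits of both marks fell within 25 bp of each other, and all 5 were distal. The leading 2 of the H3K27ac list, at chr12:3109866-3110192 and chr6:103598948-103599372, had folds of 45.8 and 41.5, and the same regions led the H3K4me1 list with 49.2 and 50.1. The nearest start sites were those of 1700012B15Rik at 127 kb and of Chl1 at 138 kb. The third region with both marks lay 23.5 kb upstream of Gm5614 with folds of 34.1 and 36.2, and the next regions were near Pum2 and Gm20422. The central 25 bases of the region on chromosome 12 occurred 2 times in the genome, and those of the region near Chl1 5 times. The part of repeat sequence or of the missing input in these folds was not tested. The window of the former is shown as the H3K27ac region of highest fold, with CG dinucleotides in capitals.
Narrow region of both lists, chr12:3109935-3110134: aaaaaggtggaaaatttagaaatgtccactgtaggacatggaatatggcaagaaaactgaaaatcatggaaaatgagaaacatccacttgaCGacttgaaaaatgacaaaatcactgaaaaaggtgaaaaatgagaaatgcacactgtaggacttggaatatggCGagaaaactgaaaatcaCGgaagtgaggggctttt

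Among H3K27ac peaks without H3K4me1, the highest folds lay near Gm15319 (36.1), at the promoter of N6amt1, a methyltransferase gene (30.3), and near 4930467E23Rik (28.3), Zfp869 (28.0) and Sucla2 (26.2), which encodes a mitochondrial ligase subunit. Among H3K4me1 peaks without H3K27ac, those nearest to Xcr1 (19.1), Tc2n (16.4), Abhd3 (16.3), Dcbld2 (16.3) and Crh (15.8) led, and Crh encodes the stress hormone corticotropin-releasing hormone. The central 25 bases of the region near Xcr1 occurred 95 times in the genome, and those of the others 1 time each.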

How the data were processed

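H3K27ac and H3K4me1 were measured by ChIP-seq in aNPC, 2 biological replicates per mark. The authors aligned reads uniquely to mm9 with Bowtie, merged replicates with SAMtools 0.1.19 and called peaks with MACS2 at default settings without input. In the deposited lists the score column is 10 times the −log10 q, as a whole number. The deposited fold enrichment is that at the summit, and the −log10 q column was deposited by the authors per peak. Chromosomes 1 to 19 were used, and 1864 of 79417 H3K27ac and 3716 of 154243 H3K4me1 peaks lay elsewhere. Depth is unknown.

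Peaks were intersected with an overlap of at least 1 bp and placed on the GENCODE M1 annotation of NCBIM37, with Python 3.11.15, NumPy 2.4.6, pandas 2.3.3, SciPy 1.17.1 and pysam 0.24.0. The intersection was tested on simulated intervals. The members and gene lists were chosen with earlier results of these data known. The genes named are those with the 5 highest counts of each class (also per 100 kb), the nearest genes of the 5 peaks of highest fold, and, of each gene list, the genes outside its most frequent state or up to 6 in listed order. Others, such as Lhx2, Etv4 and Grin2b, were chosen after their values were seen, and a few genes under the rule are not reported here. Alternatives were a −log10 q of at least 5, overlap by the summit, by 50% of the shorter peak or across a 500 bp gap, other promoters and start sites, and nearest-gene assignment. The other 47 samples were not used here, 8 of which have conflicting labels.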

Additional observations from a re-analysis of the deposited data

How the results depend on the processing

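The counts of each class, promoter shares, distances, widths, gene states and leading genes were each recomputed under the alternatives chosen for them, not under every one. Of the values, 22 were labelled as the same and 30 as moved, but the first label allowed large changes in counts. Under it, H3K27ac without H3K4me1 went from 13779 to 20196 when overlap was measured against the shorter peak. It went to 10115 at a −log10 q of at least 5. H3K4me1 with H3K27ac went from 58710 to 42429 under the summit rule. Genes with H3K27ac alone went from 1444 to 1749 at that q threshold. H3K27ac without H3K4me1 numbered 24870 under the summit rule and 6126 with a 500 bp gap. Promoter shares of H3K27ac with H3K4me1, H3K27ac without it and H3K4me1 without H3K27ac were 22.3%, 23.6% and 9.91% with promoters within 1 kb of any transcript start, 13.3%, 15.5% and 5.06% at a −log10 q of at least 5, and 8.14%, 18.1% and 5.48% under the summit rule. In the same order, median distances were 13888, 16831 and 17115 bp with all transcripts and 21994, 16996 and 28321.5 bp at a −log10 q of at least 5, and median widths were 588, 362 and 468 bp at that threshold and 454, 383 and 396 bp under the summit rule. Genes with H3K27ac alone numbered 306 with promoters of 1 kb on both sides. Of the leading 5 genes of each class, 0, 1 and 1 were shared with the nearest-start ranking, and 3, 3 and 3 without transcripts that contain 3 or more other coding genes, an alternative chosen after seeing the data. Apart from the alternatives' own construction the cause was not tested. Promoter share stayed lowest for H3K4me1 without H3K27ac under each promoter alternative. No paired analysis was possible because the authors merged the replicates before calling peaks, and for the same reason no replicate could be left out. Without an input or read counts, weak peaks and repeat-derived peaks cannot be separated from others.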
